A study of Mus musculus with 4 samples.

Results

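The phagocyte NADPH oxidase was examined through 6 of its subunit genes, Cybb, Cyba, Ncf1, Ncf4, Rac1 and Rac2, in mouse MDSC cultures with knockdown or overexpression of lnc-C/EBPβ. A probe set, the group of oligonucleotides that gives 1 value on an Affymetrix array, was taken as a member when the platform annotation gave it a single gene symbol and that symbol was one of the 6. This selected 13 probe sets of the 34958 that carry a single symbol, with 3 each for Cybb, Ncf1 and Rac1, 2 for Rac2, and 1 each for Cyba and Ncf4. The rule used no measured value, but the 6 genes were chosen with earlier results of these data known. Bone marrow cells of C57BL/6 mice, whose age the labels do not give, were infected with lentivirus and cultured for 4 days in complete medium with GM-CSF and IL-6, in all groups alike. The knockdown pair was kdLNC, infected with the shRNA lentivirus that the labels call shlncMDSC, and kdNC, infected with a control shRNA lentivirus whose shRNA targets luciferase according to the methods. The overexpression pair was oeLNC, infected with a lentivirus carrying the RNA, and oeNC, infected with the overexpression control lentivirus. In the labels the RNA is called lncMDSC, and the paper is the source for calling it lnc-C/EBPβ. Each group was measured on a single array, which leaves the differences without a replicate error and allows no test. No probe set could be matched to lnc-C/EBPβ itself here, so its level, and with it the labels, was not checked. No sorting is described for these cultures, so fewer cells of a type and less RNA per cell cannot be told apart.

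The oxidase is the enzyme by which neutrophils, monocytes, macrophages and eosinophils make superoxide, and reactive oxygen species are one of the means by which PMN-MDSCs suppress T cells. Cybb encodes the catalytic flavocytochrome (gp91phox, also called NOX2), which carries electrons across the membrane, and Cyba encodes its membrane partner p22phox. In resting cells the cytosolic subunits, among them p47phox from Ncf1 and p40phox from Ncf4, lie apart from the membrane. Phosphorylation of p47phox and loading of a Rac GTPase with GTP bring them together with the flavocytochrome. Loss of a subunit gene such as CYBB or NCF1 in humans causes chronic granulomatous disease.

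The promoters of Cybb, Ncf1 and Cyba are shown because Ncf1 held the most variable probe set above the filter and Cyba the least variable, Cybb encodes the catalytic subunit, and transcription factors of myeloid cells, PU.1, IRF8 and C/EBP proteins, are known regulators of oxidase genes. Sequences are from RefSeq on GRCm38.p6, run 5′ to 3′ on the gene's strand from 250 bases before to 50 after the annotated start, and were found for 3 of the 6 genes. Capitals mark matches on either strand to GAGGAA (the core of a PU.1-type ETS site), to GAAANNGAAA (an IRF response element), to TTGCNNAA (a C/EBP site) or to CCAAT (the CCAAT box). No matches overlapped in these promoters.
Cybb, chrX:9469275-9469574, minus strand: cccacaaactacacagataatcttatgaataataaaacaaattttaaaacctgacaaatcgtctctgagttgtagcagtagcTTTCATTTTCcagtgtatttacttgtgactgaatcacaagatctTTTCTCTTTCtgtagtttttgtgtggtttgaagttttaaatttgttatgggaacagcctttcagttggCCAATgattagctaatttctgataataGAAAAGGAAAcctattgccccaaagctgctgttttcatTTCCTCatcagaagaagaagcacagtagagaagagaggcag
Ncf1, chr5:134229576-134229875, minus strand: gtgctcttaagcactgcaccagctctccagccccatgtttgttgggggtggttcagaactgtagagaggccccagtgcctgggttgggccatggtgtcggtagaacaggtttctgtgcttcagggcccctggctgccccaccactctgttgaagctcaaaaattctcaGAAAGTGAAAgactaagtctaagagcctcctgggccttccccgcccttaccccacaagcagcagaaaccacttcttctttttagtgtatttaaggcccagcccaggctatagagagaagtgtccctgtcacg
Cyba, chr8:122432891-122433190, minus strand: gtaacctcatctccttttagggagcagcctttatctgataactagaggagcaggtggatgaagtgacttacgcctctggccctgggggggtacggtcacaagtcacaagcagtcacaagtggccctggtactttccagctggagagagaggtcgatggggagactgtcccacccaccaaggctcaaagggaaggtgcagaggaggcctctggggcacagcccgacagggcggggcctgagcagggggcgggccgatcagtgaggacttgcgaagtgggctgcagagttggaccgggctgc
The Cybb promoter held 3 matches to the IRF element, with first bases at positions -168, -124 and -29, besides a CCAAT box at -56 and a match to GAGGAA at position 10 after the start. The Ncf1 promoter held 1 match to the IRF element, at -82. The Cyba promoter held none of the 4 motifs, and no match to the C/EBP motif was found in any of the 3. Among all 32851 promoters of the table, 3.44% held the IRF element, 28.3% GAGGAA, 10.8% the C/EBP motif and 37.4% CCAAT. The Cybb promoter was 35.3% GC, that of Ncf1 54.0% and that of Cyba 60.7%, with a median of 52.7% over all promoters. A match describes the letters and is not evidence of binding, and the arrays do not measure it.

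**Figure D1:**
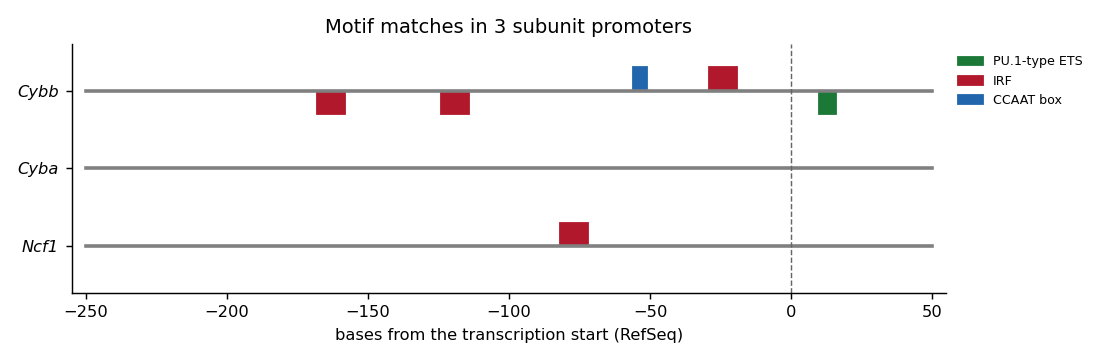
Positions of motif matches in the promoters of Cybb, Cyba and Ncf1, in bases from the RefSeq transcription start; boxes above a line lie on the gene's strand and boxes below it on the other strand. Cybb holds 3 IRF matches, Ncf1 holds 1, and Cyba holds no match to any of the 4 motifs.

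Each oxidase gene had a probe set above the array median in all 4 cultures. None of the genes' probe sets differed by 1.5-fold between an array with altered lnc-C/EBPβ and its own control. Values below are log2 of the deposited intensity, and a difference is the log2 value of one array minus that of the other. Counts took in the 12 of 13 member probe sets that exceeded the array median at least once in each pair. The other is the dimmest Rac1 probe set. In kdLNC against kdNC, 0 of 12 were at least 1.5-fold higher and 0 at least 1.5-fold lower, where 3.47% of all 19770 probe sets above the filter were higher and 1.78% lower by as much. In oeLNC against oeNC it was again 0 of 12 in each direction, against 3.85% of 20065 higher and 7.28% lower. With shares this low, a count of 0 among 12 does not set the members apart from other probe sets. The largest difference between the control arrays was larger than any within a pair, and there 1 of 12 was at least 1.5-fold higher in oeNC than in kdNC (10.7% of 20120) and 1 lower (13.9%). The median difference of the members was -0.143 on knockdown, 0.017 on overexpression (-0.0521 after median centring) and -0.195 between the controls, where the medians over all probe sets were -0.031, -0.036 and -0.039. As a yardstick, the difference between the control arrays had an SD of 0.46 to 0.66 over the 500 probe sets nearest in level to each of the 12 members. This SD mixes effects of vector, culture and array and does not stand for replicate error. All 12 differences within each pair were smaller than this SD, and 3 of the 12 between the control arrays were not.

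**Figure D2:**
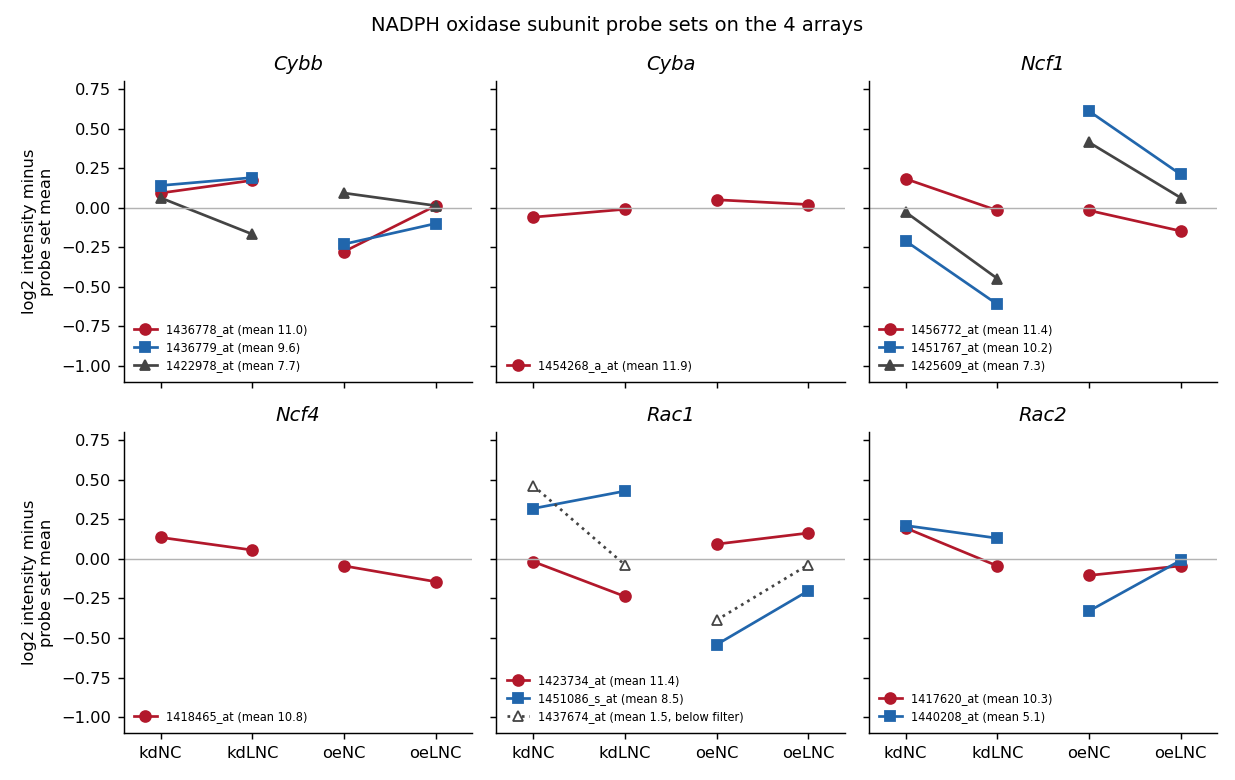
Log2 intensity of each member probe set on the 4 arrays, minus the mean of that probe set, with 1 panel per gene on a common axis; lines join the 2 arrays of a pair and the open triangles mark the Rac1 probe set below the filter. Cyba stays within 0.11 over the arrays, and the Ncf1 probe set 1451767_at spans 1.22.

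The membrane subunits were nearly level within each pair. The brightest Cybb probe set, 1436778_at, had log2 values of 11.10 and 11.18 in the knockdown pair and of 10.73 and 11.02 in the overexpression pair, the control array first in each. Its differences were 0.08 on knockdown and 0.29 on overexpression, and both arrays of the overexpression pair lay below both of the knockdown pair. The Cybb probe set 1436779_at gave 9.78, 9.83, 9.41 and 9.54 in the same order, with differences of 0.05 and 0.13. The annotation gives both the same source sequence, and both were lower in oeNC than in kdNC, with a difference of -0.37 each. The dimmest, 1422978_at had 7.81, 7.58, 7.84 and 7.76. It was lower in kdLNC (-0.23) and in oeLNC (-0.08) than in the control of the pair and did not separate the pairs, so the Cybb probe sets disagree in sign in all 3 comparisons. Against the SD at their level of 0.51 to 0.61 none of these differences stands out. Cyba, which stabilizes the flavocytochrome, had the flattest profile of all member probe sets, with 11.87 and 11.92 in kdNC and kdLNC, and 11.98 and 11.95 in oeNC and oeLNC. Its differences of 0.05 on knockdown and -0.03 on overexpression changed sign after quantile normalization (-0.00559 and 0.0493), and they are too small to give a direction. The highest intensity on each array was 11800 to 12300, and that of Cyba was 3750 to 4040, so Cyba did not lie at the top of the scale.

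Ncf1, which encodes the organizer p47phox, was the only member gene with all of its probe sets lower in both kdLNC and oeLNC than in the control of the pair, besides Ncf4 with its single probe set. The probe set 1451767_at had 9.99 in kdNC and 9.59 in kdLNC, against 10.81 in oeNC and 10.41 in oeLNC. It was thus lower by the same amount in both pairs (-0.40 and -0.40) and higher by 0.82 in oeNC than in kdNC, a fold of 1.76. The probe set 1425609_at, with the same source sequence, had 7.28, 6.86, 7.72 and 7.37, with differences of -0.43, -0.36 and 0.44. In both probe sets the 2 arrays of the overexpression pair lay above the 2 of the knockdown pair. The brightest probe set, 1456772_at, with another source sequence, gave 11.62, 11.42, 11.42 and 11.29 in the same order. There the differences within the pairs were -0.21 and -0.13, and the difference between oeNC and kdNC was -0.20. The direction between the control arrays therefore depends on the probe set, while the direction within the pairs was the same in all 3, also after median centring, quantile normalization and loess. These within-pair differences were 0.28 to 0.74 of the SD at their level. When oeNC and kdNC were averaged to serve as control for each pair, the knockdown differences of 1451767_at and 1425609_at were -0.81 and -0.65, past 1.5-fold, and the overexpression differences were 0.01 and -0.14. The 3 probe sets of Ncf1 are not replicates of a condition, since they read the same RNA of the same culture. Whether their targets belong to different transcripts was not tested. Ncf4, which encodes the regulatory p40phox, had 10.93 and 10.85 in kdNC and kdLNC, and 10.75 and 10.65 in oeNC and oeLNC. Its differences of -0.08 and -0.09 were small beside an SD of 0.52, and the overexpression pair lay below the knockdown pair by a gap of 0.10.

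The Rac GTPases supply the switch of the oxidase, with Rac2 restricted to blood cells and Rac1 found in most cell types. The brightest Rac1 probe set, 1423734_at, had 11.34 and 11.12 in kdNC and kdLNC, and 11.45 and 11.52 in oeNC and oeLNC, with differences of -0.22 on knockdown and 0.07 on overexpression. The probe set 1451086_s_at, whose suffix marks probes that can match several transcripts or genes, had 8.77, 8.88, 7.91 and 8.25. Its differences within the pairs were 0.10 and 0.34, and between oeNC and kdNC the difference was -0.86, a fold of 1.82 and the largest control difference of the 12 members. The first of these probe sets was higher in oeNC by 0.11, although both have the same source sequence in the annotation. The third Rac1 probe set, 1437674_at, had log2 values of 1.98, 1.48, 1.13 and 1.48, where the array medians were 4.17 to 4.24. At this level a difference says little, and it was left out of the counts. Rac2 had 10.51 and 10.27 in kdNC and kdLNC, and 10.21 and 10.27 in oeNC and oeLNC, at 1417620_at, which puts kdNC above the other arrays and the other 3 within 0.06. Its difference was -0.25 on knockdown and 0.06 on overexpression, and the latter was -0.00693 after median centring. The dim Rac2 probe set 1440208_at gave 5.35, 5.27, 4.81 and 5.13, with differences of -0.08 and 0.32, and oeNC as the lowest array.

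**Figure D3:**
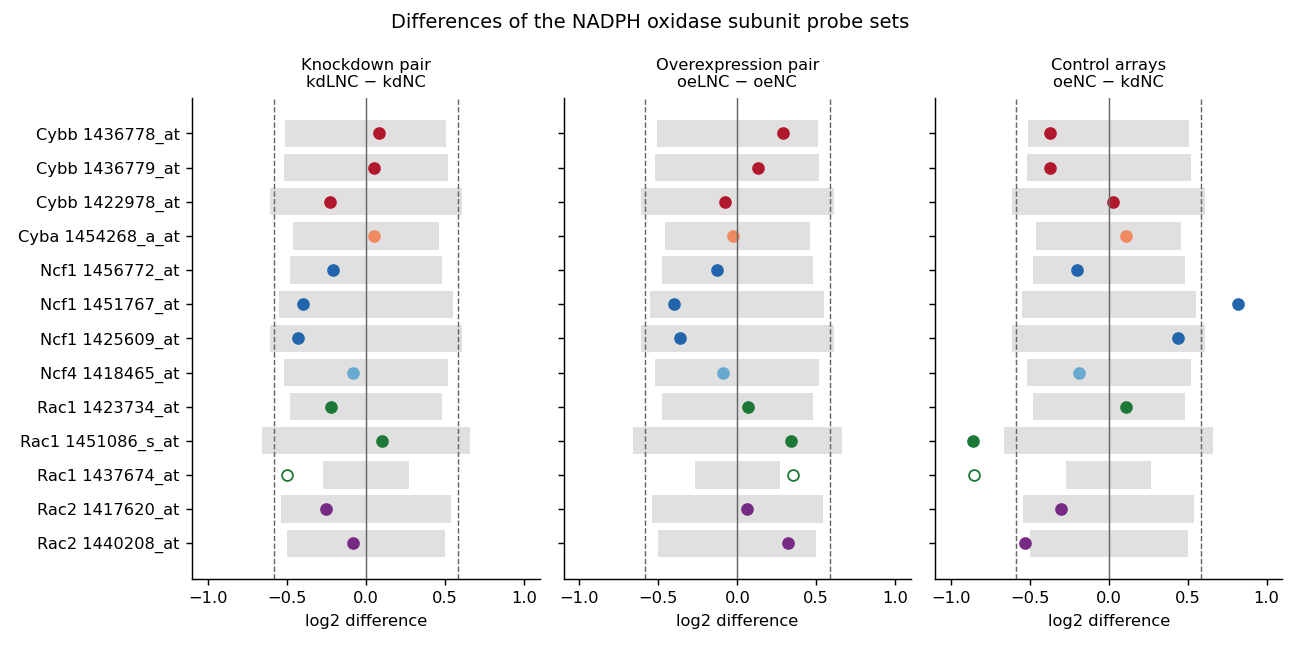
Log2 difference of each member probe set in the knockdown pair, the overexpression pair and between the control arrays; grey bars span 1 SD of the control difference over the 500 probe sets nearest in level to either side of 0, dashed lines mark 1.5-fold, and open circles are below the filter. Within the pairs all 12 filled points lie inside the grey bars, and in the right panel Ncf1 1451767_at at 0.82 and Rac1 1451086_s_at at -0.86 lie outside theirs and past 1.5-fold.

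The signs of the differences were compared between the pairs, which share no array. All 12 differences within each pair were smaller than the SD at their level. With 1 array per group, such signs cannot show whether overexpression moved the subunits opposite to knockdown. Of the 12 probe sets, 4 had differences of opposite sign in the pairs, namely Cyba, the brightest Rac1 probe set and both of Rac2, and 8 had the same sign. Over the 18982 probe sets above the filter in both pairs, 53.8% had opposite signs. After median centring the count was 3 (53.6% of all probe sets), after quantile normalization 4 (55.4%) and after loess 4 (55.2%). With the mean of both control arrays, which the pairs then share, it was 6 (57% of all). Of the 8 with the same sign, 5 were lower in both kdLNC and oeLNC (all 3 of Ncf1, Ncf4 and the dimmest of Cybb) and 3 were higher in both (the brighter of Cybb and Rac1 1451086_s_at). Both overexpression arrays lay above both knockdown arrays for 4 of 12 (24.2% of all 18982) and below them for 5 of 12 (32.8%). With 12 members, these counts do not set them apart from all probe sets. The pairs differ in vector type, and culture and hybridization cannot be told apart from it.

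**Figure D4:**
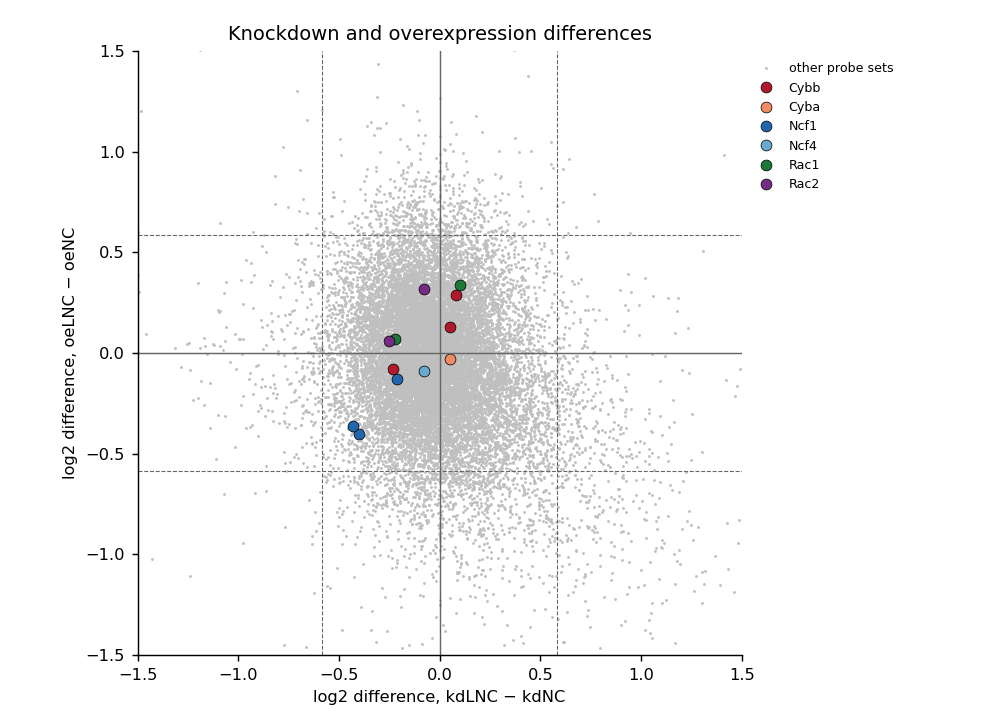
Knockdown difference (kdLNC minus kdNC, x) against overexpression difference (oeLNC minus oeNC, y) on the log2 scale for 18982 probe sets above the filter in both pairs (grey, 49 of them beyond the axes at 1.5) and the 12 member probe sets (coloured by gene); dashed lines mark 1.5-fold. All member points lie inside the dashed square, with 2 Ncf1 probe sets at -0.40 and -0.43 on knockdown nearest to its lower left corner.

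Probe sets of one gene could differ more from each other than from probe sets of other genes. Likeness was measured as the Euclidean distance between log2 profiles over the 4 arrays, each centred on its own mean. The 2 brighter probe sets of Cybb lay 0.13 apart, those of Rac2 0.29, the pair of Ncf1 with one source sequence 0.35, and the brightest Ncf1 probe set lay 1.02 from 1451767_at. The 2 brighter Rac1 probe sets lay 1.05 apart. Between genes, the brightest Ncf1 probe set was close to Ncf4 (0.10) and to Rac2 1417620_at (0.14). Among 17617 to 17619 candidates per member probe set, the most alike probe sets of other genes lay at 0.008 to 0.048. They were Osgin2 (0.017), Fam189b (0.008) and Klf6 (0.020) for the Cybb probe sets, and Sim1 (0.014) for Cyba. For Ncf1 they were Glul (0.048) for 1451767_at, Tollip (0.017) for 1425609_at and Slc44a2 (0.018) for 1456772_at. For Ncf4 it was Septin6 (0.013), for Rac1 Adss (0.017) and Bms1 (0.038), and for Rac2 Akt1 (0.010) and Aldh3a2 (0.023). With 4 arrays and so many candidates, near matches of this kind are always found.

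Other genes of the pathway were taken from 6 lists and counted as probe sets above the filter, by the same 1.5-fold threshold. Over all probe sets above the filter, 3.47% were higher and 1.78% lower on knockdown, and 3.85% higher and 7.28% lower on overexpression. Of the homologues and partners of the oxidase, 0 of 6 probe sets passed it in either pair. Cybc1, which encodes a chaperone of the flavocytochrome, had 8.21 and 8.11 in kdNC and kdLNC, and 7.90 and 8.08 in oeNC and oeLNC. Hvcn1, the proton channel that balances the charge moved by the oxidase, had 9.01 in kdNC, 8.59 in oeNC and 8.24 in oeLNC, with a difference of -0.01 on knockdown and a difference of -0.36 on overexpression. Of the genes that load or restrain Rac, 3 of 19 probe sets were higher in kdLNC and none lower. These were both probe sets of Vav1, an exchange factor of blood cells (0.59 and 0.64), and 1 of the 3 of Dock2, another exchange factor (0.72, with -0.12 and 0.17 at the others). In oeLNC 1 of 19 was higher, Vav1 1440300_at (0.96), with a difference of -1.41 between oeNC and kdNC. The brighter Vav1 probe set had 0.03 on overexpression. The list median was -0.03 on knockdown and -0.02 on overexpression.

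Of the kinases and the phospholipase that act on the oxidase, 1 of 30 probe sets was at least 1.5-fold higher in kdLNC, a dim probe set of Prkcb, a protein kinase C (0.96, with 0.26 and 0.40 at its others). Its log2 values were 3.74 in kdNC and 4.70 in kdLNC, so it passed the filter only through the array where it was high, and with the filter at the 70th percentile the count was 0. None was lower, and Prkcd, a protein kinase C known to phosphorylate p47phox, had differences of -0.41 and -0.29. In oeLNC 3 of 31 were lower and none higher, with 1 probe set of Mapk14 (-0.94) and 2 of Pik3cd (-0.67 and -0.68). The Mapk14 probe set (5.09 in oeNC, 4.15 in oeLNC) and the dimmer of Pik3cd (4.72 and 4.05) passed the filter only through oeNC, where they were high. The count was 1 with the filter at the 70th percentile and 0 with the mean of both controls. Mapk14 encodes the stress kinase p38α and Pik3cd a phosphoinositide kinase of leukocytes. Their other probe sets above the filter ran from -0.50 to 0.34 for Mapk14 and from -0.16 to 0.17 for Pik3cd. Of the receptors that trigger the burst, 1 of 14 was lower in kdLNC, the dimmer probe set of the complement receptor gene C5ar1 (-0.60, with 0.34 at the other), and none passed the threshold in oeLNC. The knockdown count was 0 under median centring, quantile normalization, loess, the mean of both controls or the filter at the 70th percentile. Fpr2, a formyl peptide receptor gene, had 12.58, 12.51, 11.99 and 12.39 on the 4 arrays.

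Among genes that dispose of superoxide and peroxide, 2 of 30 probe sets passed 1.5-fold upward in kdLNC and none downward. They were 1 of 4 probe sets of Sod2, mitochondrial superoxide dismutase (0.79, where the others had 0.11, 0.12 and 0.23), and 1 of 2 of catalase, Cat (0.81, where the other had -0.03). In oeLNC both probe sets of Cat had a difference of -0.55, just under the threshold, and 1 of 31 probe sets was higher, a dim one of Txn1, thioredoxin (0.72, with 0.24 at the brighter). Among transcription factors of oxidase genes, 0 of 14 probe sets passed the threshold on knockdown. On overexpression 1 of 14 did, Irf8 1448452_at (-0.59), and the other probe set of Irf8 had -0.03. Spi1, which encodes PU.1, had 9.38 and 9.16 in kdNC and kdLNC, and 9.33 and 9.28 in oeNC and oeLNC. Cebpb had differences of 0.01 and 0.03 on knockdown and of -0.18 and -0.13 on overexpression. Read as whole lists, the 6 lists had medians of -0.18 to -0.01 on knockdown and of -0.09 to 0.06 on overexpression.

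**Figure D5:**
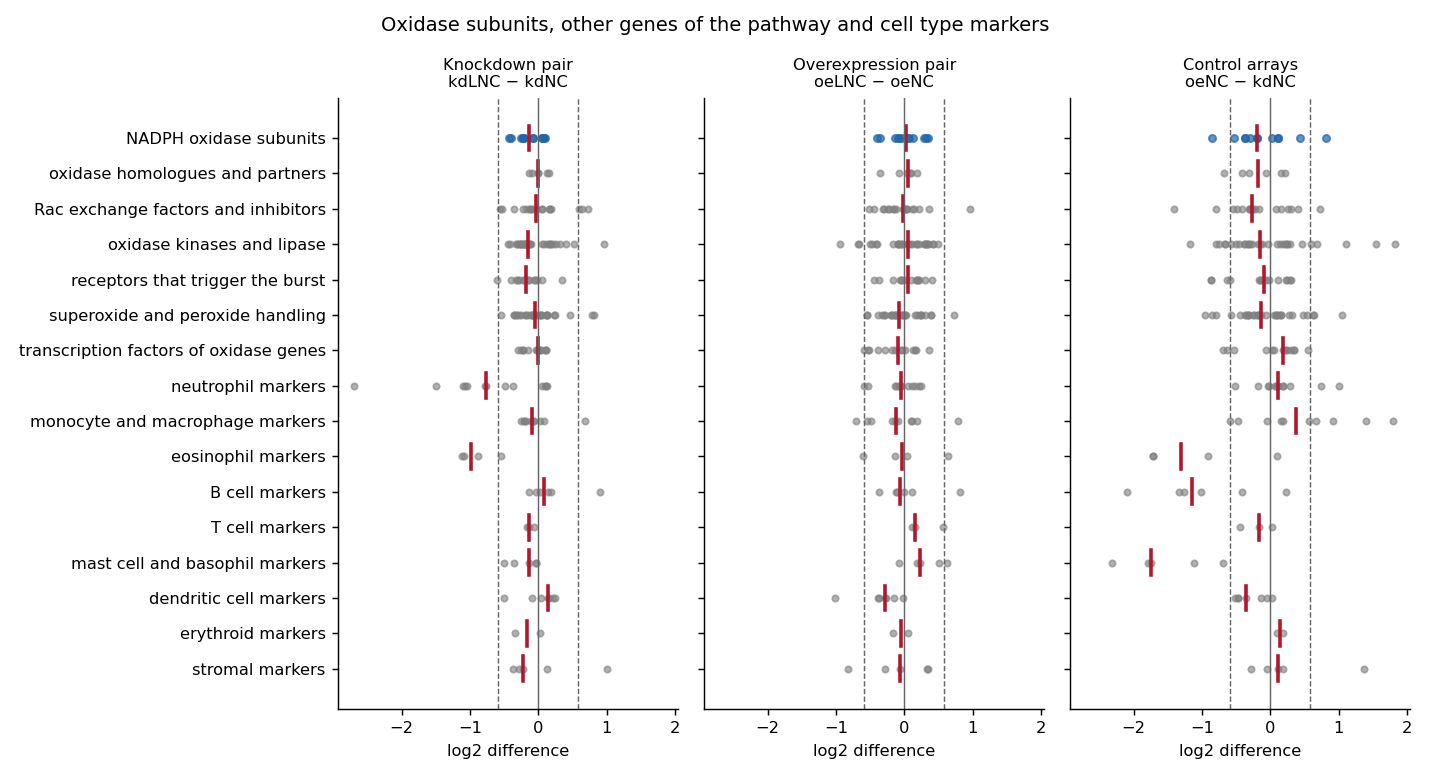
Log2 difference of each probe set above the filter (points) with the list median (red bar), for the oxidase subunits (top, blue), 6 lists of other oxidase pathway genes and 9 lists of cell type markers, in the knockdown pair, the overexpression pair and between the control arrays. Neutrophil markers have a median of -0.76 in the left panel while that of the subunits is -0.143, and mast cell and basophil markers have a median of -1.74 in the right panel.

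Cells that use the oxidase were not level across the arrays by their markers. Over all probe sets above the filter, 3.47% were at least 1.5-fold higher and 1.78% lower on knockdown. On overexpression it was 3.85% and 7.28%, and in oeNC against kdNC 10.7% and 13.9%. All 13 probe sets of the neutrophil markers lay above the array median on all 4 arrays. On knockdown 7 of the 13 were lower by 1.5-fold or more, led by the granule protein gene Ltf (-2.70), and the list median was -0.76. S100a8 (0.10), S100a9 (0.05), Lcn2 (0.12) and Mmp8 (0.11) had small differences of the other sign. S100a8, S100a9 and Lcn2 had log2 values of 13.17 to 13.49, near the highest value of each array. Whether differences are compressed at that level was not tested, so their signs say little. On overexpression 1 of the 13 was lower, with a median of -0.05. The summed intensity of the 13, much of it from S100a8, S100a9 and Lcn2, was 47900 and 40400 in kdNC and kdLNC. In oeNC and oeLNC it was 52300 and 48900. Of 4 eosinophil probe sets 3 were lower in kdLNC (median -0.99), with a summed intensity over 5 of 2330 in kdNC and of 1090 to 1250 on the other arrays, and a median of -0.04 on overexpression. Of 10 monocyte and macrophage probe sets, 1 was higher in kdLNC and none lower (median -0.10, and -0.12 on overexpression). Between the control arrays 4 were higher and 1 lower in oeNC than in kdNC (median 0.37). Of the 4, Mrc1 (3.14 in kdNC, 4.94 in oeNC) passed the filter only through oeNC, where it was high. Adgre1 (0.18) and Cd68 (-0.05) were nearly level, and Cx3cr1 1450020_at (-0.47) and Ccr2 1460067_at (-0.59) were lower in oeNC. The summed intensity over all 14 probe sets of the list was 10200 in kdNC and 14400 in oeNC. Cd14 alone had log2 values of 11.74 and 12.66 there. B cell markers, whose cells also carry the oxidase, had 4 of 6 probe sets lower in oeNC (median -1.14 against kdNC), and mast cell and basophil markers 5 of 5 (median -1.74). On knockdown and overexpression the medians were 0.08 and -0.06 for B cell markers, and -0.14 and 0.23 for mast cell and basophil markers. The latter both changed sign with the mean of both controls, to 0.392 and -0.418. The knockdown and overexpression medians were -0.23 to 0.15 for T cell, erythroid and stromal markers, while dendritic cell markers had 0.14 and -0.28. For beta-actin, the log2 intensity of the 3′ control probe set over the 5′ one, a sign of RNA integrity, was 1.61 in kdNC and 1.96 to 1.97 on the other arrays. For Gapdh it was 0.51 in kdNC and 0.53 in oeNC, and 0.69 in kdLNC and 0.65 in oeLNC, so kdNC did not stand apart there. The part of cell makeup and RNA integrity in the subunit values was not tested.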

How the data were processed

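Total RNA of 4 MDSC cultures, 1 per group, was hybridized to Affymetrix Mouse Genome 430 2.0 arrays. The authors deposited normalized intensity values for 45101 probe sets on a linear scale, and RMA is named in the submitters' processing notes, with no version. No background estimate was used, so the margin over background is unknown. Precision is limited by the number of arrays. Groups were taken from the labels. Differences of log2 intensity were computed with Python 3.11.15, numpy 2.4.6, pandas 2.3.3 with statsmodels 0.14.6 for loess, and matplotlib 3.10.9 drew the plots. The code was run on simulated data whose shifts were larger than any member difference. That run checks the calculation and not whether differences as small as those of the members can be detected.

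The platform annotation of 2016 names a single gene for 34958 probe sets, which alone were used. It lists several for another 932 and names no gene for 9211. Counts include probe sets that exceed the 50th percentile on either array of a pair, with a threshold of 1.5-fold. Of 140 genes in 15 lists, 115 were measured by such probe sets, and the other 25 are not analysed here. Named are all member probe sets, of each list some of the up to 4 largest differences per pair together with other probe sets of those genes, and of the 2 most alike probe sets per member the first. Cybc1, Hvcn1, Spi1, Cebpb and some neutrophil, monocyte and macrophage markers were also named in comparisons where they were not among the largest. The members, lists and motifs were chosen with earlier results of these data known, and the counts of signs and of separated culture pairs were added after the values were seen. Limma, which the methods name, could not be fitted with 1 array per group. Alternatives were median centring, quantile normalization, loess within each pair (span 0.3), the mean of both controls, other filters and folds, and leaving out probe sets whose suffix marks several possible targets.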

Additional observations from a re-analysis of the deposited data

How the results depend on the processing

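No paired analysis was possible because only 1 array stands for each group, and for the same reason none could be left out. A difference counted as moved when it changed by more than the SD at its level, a list median when it changed by 0.1, and a count when it changed by more than 1.5 times. Of the member differences under all alternatives 174 were the same and 2 moved, both of the dimmest Rac1 probe set with the mean of both controls (-0.0739 on knockdown and on overexpression). Leaving out probe sets with several possible targets cannot change the value of another probe set, so those entries were the same by construction. For the 12 members above the filter the limit exceeded every difference within a pair, so the tally says little about stability. Ncf1 1451767_at counted as the same on knockdown at -0.40 and, with the mean of both controls, at -0.81. In all, 12 of the 176 member differences changed sign. With the mean of both controls, 2 member probe sets, both of Ncf1, were at least 1.5-fold lower in kdLNC, where none was otherwise. That setting takes part of the control difference into each pair by construction. Between the control arrays, the number of lower probe sets was 0 when probe sets with several possible targets were left out and 2 without the filter, and at 2-fold and 3-fold the numbers were 0 lower and 0 higher. The member medians ran from -0.213 to -0.0517 on knockdown, from -0.058 to 0.0644 on overexpression and from -0.244 to -0.159 between the controls. Of the counts and medians of the other lists 894 were the same and 186 moved, and 31 changed sign. The cause was not tested except where the setting fixes it.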
